A study of Sus scrofa with 3 samples.

Results

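The liver of castrated, testosterone-replaced pigs (CMT) was compared with the liver of intact male pigs (IM), to describe what weekly testosterone left different from intact testes. The comparison covered every mRNA feature with an FPKM (fragments per kilobase of transcript, scaled for library depth) of at least 1 in both libraries. These were 15878 of the 22945 mRNA features and of the 34579 features of all types in the deposited tables. All pigs were Chinese Wuzhishan pigs, labelled 6 to 7 months old, and all ate the same diet rich in fat and cholesterol (HFC). IM pigs kept their testes, castrated male pigs (CM) received no hormone, and CMT pigs were castrated and given weekly intramuscular testosterone propionate, a testosterone ester. Each group was 1 library of liver RNA pooled in equal amounts from 3 pigs according to the labels, although the study's methods describe larger groups and pooling by group, so the number of pigs in a pool is uncertain. Thus the comparison of CMT with IM was 1 library against 1 library. CM was used only to place each difference, by asking whether CM differed from IM in the same direction, in the opposite direction or by less than 1.5-fold.

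With 1 pool per group there is no replicate error, no p-value was computed, and differences between the pigs of the pools cannot be told apart from effects of the hormone. Ratios are given with a 95% exact (Clopper-Pearson) binomial interval from the reads behind the FPKM values. The interval covers counting error only and compares these libraries, not the conditions. In pooled tissue, fewer cells of a type and less RNA per cell also cannot be told apart. Library depth, as the sum of recovered reads, ran from 25438682 in CMT to 36150039 in CM, with 32219864 in IM, and for a 1 kb transcript each FPKM unit stood for 2.51 reads in IM, 3.42 reads in CM and 2.04 reads in CMT. The labelled tissue was checked against 9 hepatocyte markers, which were present in both libraries. Albumin (ALB), the main plasma protein made by hepatocytes, had the highest FPKM of all features in each library.

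Testosterone acts on liver cells directly and, in males of many species, also indirectly, by shaping how growth hormone is released from the pituitary, which sets the level of many sex-biased liver enzymes. Among these are cytochrome P450 enzymes, which hydroxylate drugs and steroids, and the sulfotransferases and hydroxysteroid dehydrogenases that inactivate steroids. Testes release testosterone in pulses, whereas an injected ester forms a depot that is released slowly.

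Most genes in CMT were close to their level in IM. Of the 15878 genes, 13129 (82.7%) lay within 1.5-fold, 1088 (6.85%) were at least 1.5-fold higher in CMT and 1661 (10.5%) were at least 1.5-fold lower, which is 17.3% in either direction. The median log2 ratio was -0.01. At least 2-fold differences were seen for 364 genes that were higher and 651 that were lower, and at least 4-fold differences for 40 and 101. The plot of IM against CMT shows the genes farthest from equality on the lower side, where the genes had high FPKM values in IM. Weakly expressed genes passed 1.5-fold more often: 16.0% were higher and 27.7% lower at a mean FPKM of 1 to 10, with a median of 29 reads in the 2 libraries together, against 3.16% and 3.30% at an FPKM of 100 to 1000. Of the 2624 genes past 1.5-fold with recovered reads, 1163 rested on fewer than 50 reads, and 1535 had an interval that left out a ratio of 1. The 6.85% and 10.5% are the shares over all genes for the counts of list members below. They are not matched for level. By the shares above, lists of weakly expressed genes would have more members past 1.5-fold, and lists of strongly expressed genes fewer.

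**Figure D1:**
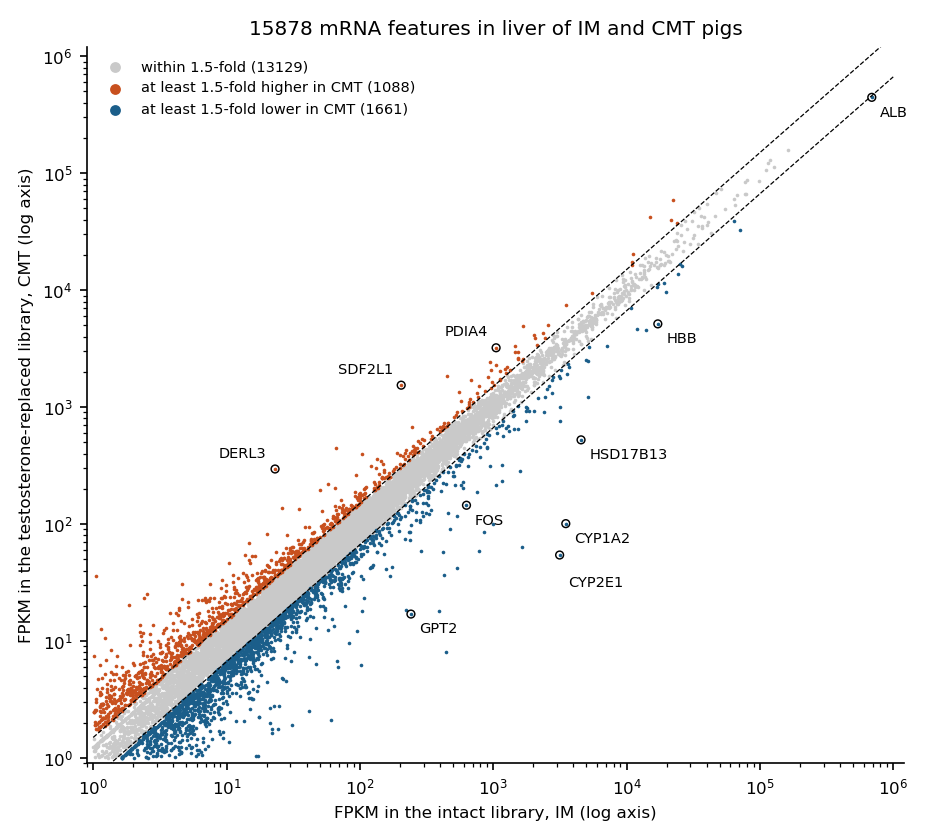
FPKM of 15878 mRNA features in the intact library (IM, x axis) and the testosterone-replaced library (CMT, y axis), both on log axes, 1 point per gene. The dashed lines mark a 1.5-fold difference, which 1088 genes exceeded upwards and 1661 downwards, with CYP2E1, CYP1A2 and HSD17B13 far below the lower line.

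The 10 largest losses in well-expressed genes were dominated by enzymes of drug, lipid and amino acid metabolism. CYP2E1, which oxidizes ethanol and small solvents, had FPKM values of 3148, 14546 and 54.4 in IM, CM and CMT. CYP1A2, which oxidizes caffeine and aromatic amines, had 3502 in IM, 5294 in CM and 101 in CMT. CMT was thus below both other libraries for both genes, and below IM by 57.9-fold for CYP2E1 (47.7 to 70.9) and 34.7-fold for CYP1A2 (30.2 to 40.1).

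The same order, with CM highest and CMT lowest, was seen for the alanine aminotransferase GPT2 at 241, 648 and 17.0 in IM, CM and CMT. The aryl hydrocarbon-induced enzyme CYP1A1 had 536, 1591 and 42.5, and ACAA2, the last enzyme of mitochondrial fatty acid oxidation, had 1004, 2982 and 99.4. For the glycerol channel AQP9 the FPKM was 427, 795 and 36.6 in IM, CM and CMT, and for the glycosyltransferase EXTL1 it was 221, 463 and 18.3. These 5 genes were between 10.1-fold (ACAA2, 8.39 to 12.3) and 14.2-fold (GPT2, 11.1 to 18.3) lower in CMT than in IM. Of the 10, 8 were therefore at least 1.5-fold above IM after castration and at least 1.5-fold below IM after replacement, although CYP1A2 passed the first threshold narrowly, at 1.51-fold. MIOX, the first enzyme of inositol breakdown, had 787, 972 and 59.3 in IM, CM and CMT, a loss seen in CMT alone. LOC100623656, a feature without a gene symbol, had 391, 4.36 and 18.1 in IM, CM and CMT.

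The 10 largest gains were smaller, and several of the genes act in protein folding in the endoplasmic reticulum. DERL3, which passes misfolded proteins out of the reticulum for degradation, had FPKM values of 23.1, 22.0 and 296 in IM, CM and CMT. SDF2L1, a cofactor of the chaperone HSPA5, had 204, 181 and 1541, and CRELD2, which is induced by reticulum stress, had 103, 109 and 397. CMT stood apart from both other libraries in all 3 genes, at 12.8-fold above IM for DERL3 (9.67 to 17.3), 7.55-fold for SDF2L1 (6.33 to 9.06) and 3.85-fold for CRELD2 (3.27 to 4.56). NUCB2, a calcium-binding secretory protein, had 66.8, 82.6 and 443 in IM, CM and CMT, and the membrane protein CAV1 of caveolae had 50.5, 36.0 and 198.

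The other 5 of the 10 gains were already at least 1.5-fold higher after castration. PPP1R3C, which targets protein phosphatase to glycogen, had 57.8 in IM, 161 in CM and 219 in CMT. MMD had 65.6, 127 and 204, the sialyltransferase ST3GAL6 had 35.1, 53.9 and 136, and LOC100156937 had 26.0, 40.5 and 137. LOC100525856, named SAA1P in RefSeq and related to the serum amyloid A proteins, had 452, 723 and 1843. Its level is uncertain because serum amyloid A genes are near-identical copies between which reads can be split.

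**Figure D2:**
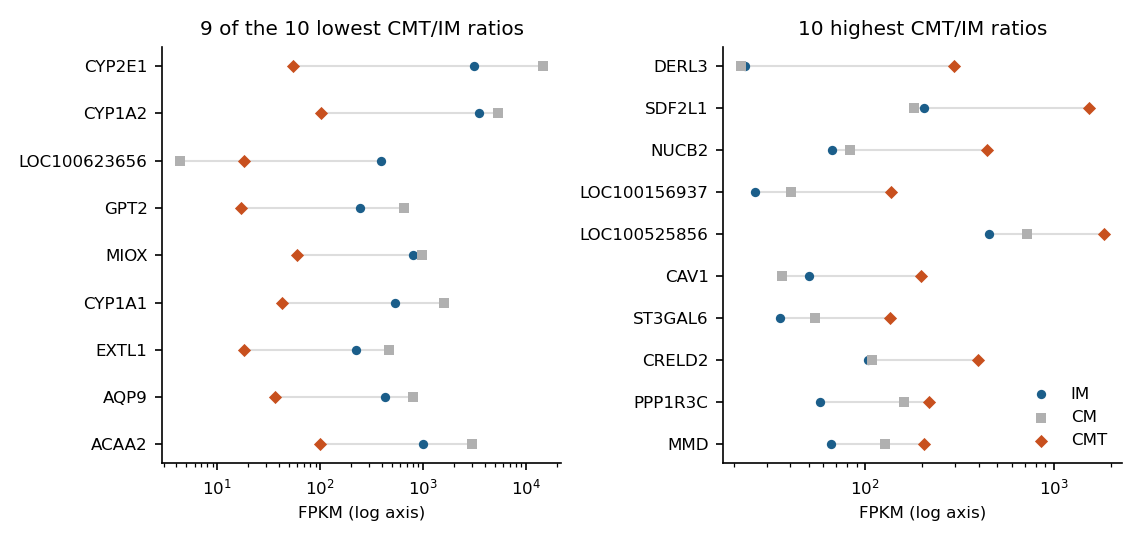
FPKM in IM, CM and CMT (log x axis, 1 symbol per library) for 9 of the 10 well-expressed genes with the lowest CMT to IM ratio (left) and the 10 with the highest (right). On the left, all genes but LOC100623656 run from highest in CM to lowest in CMT. On the right, CM lies near IM for DERL3, SDF2L1, NUCB2, CAV1 and CRELD2.

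To separate overshoot from incomplete return, the 15613 genes that also reached an FPKM of 1 in CM were classed. CM and CMT are both measured against the same IM library, so an error in IM enters both ratios, and the classes are a description. After castration, 1737 genes (11.1%) were at least 1.5-fold higher in CM than in IM and 1884 (12.1%) were lower. Of the 1737, 1081 (62.2%) were back within 1.5-fold of IM in CMT, 435 (25.0%) were still higher and 221 (12.7%) had crossed to at least 1.5-fold lower. Of the 1884, 1255 (66.6%) were back within 1.5-fold, 538 (28.6%) were still lower and 91 (4.83%) had crossed to higher. Over all 15878 genes of the comparison, 82.7% lay within 1.5-fold of IM in CMT. A gene that passed 1.5-fold only through error in CM also counts as back. The FPKM scale of CM was not in proportion to its recovered reads, and scaling to those reads moved every CM to IM ratio up by 0.28 on the log2 scale. The genes higher in CM then numbered 3432 and those lower 1003, of which 71.4% and 61.2% were back within 1.5-fold of IM in CMT, so the balance of the 2 directions depends on the scale. CHAC1, a glutathione-degrading enzyme, was among the genes that returned, with 280.0, 2.07 and 271 in IM, CM and CMT.

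Overshoot, the crossing of the IM level, was counted for 91 genes that ended higher in CMT (0.583% of genes) and 221 that ended lower (1.42%). SULT1A1, which sulfates phenols and estrogens, had FPKM values of 104, 1769.7 and 18.1 in IM, CM and CMT, and was 5.74-fold lower in CMT than in IM (3.99 to 8.48). LOC100626400, named PDZK1IP1 in RefSeq, had 42.2, 223 and 10.4, with 4 reads in CMT and an interval of 1.36 to 16.4 around its 4.06-fold difference. CYP2E1 and ACAA2, given above, completed the 4 clearest downward crossings. On the upward side, LOC100153899 had 15098, 4816 and 41966 in IM, CM and CMT, and LOC100156325 had 22172, 8643 and 58882. Neither feature has a gene symbol in RefSeq. No read count was recovered for either, so their values are uncertain and have no interval. The same holds for LOC102158205, which had 948, 90.4 and 2444 in IM, CM and CMT. LOC100621791, named C14H10orf10 in RefSeq, had 122, 45.8 and 313.

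Changes of castration that were left in CMT comprised 435 genes that stayed higher than in IM (2.79%) and 538 that stayed lower (3.45%). Most were as in CM: 326 of the 435 and 368 of the 538 lay within 1.5-fold of CM, 76 and 106 had partly returned, and 33 and 64 were farther from IM than CM was. The transferrin receptor TFRC had 144 in IM, 421 in CM and 349 in CMT, 2.43-fold above IM (2.24 to 2.64) and near its castrate level. CYP2A19, a P450 that clears skatole in pigs, had partly returned, with 1046 in IM, 7399 in CM and 2313 in CMT.

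Among the genes left lower, AADAT, a kynurenine and aminoadipate aminotransferase, had 478 in IM, 78.7 in CM and 91.5 in CMT, 5.22-fold below IM (4.47 to 6.12). SLC25A25, a mitochondrial carrier of ATP and magnesium, had 759.6, 162 and 187. LOC102164268 had 169.5, 37.1 and 36.1, and LOC100737768 had 5110.2, 1049 and 1216. In all 4 the CM and CMT values lay close together and well below IM.

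The third class held genes that were within 1.5-fold of IM in CM but not in CMT, 515 of them higher (3.30%) and 818 lower (5.24%). Of these, 296 and 565 were also at least 1.5-fold apart from CM. Its clearest members were DERL3, SDF2L1, NUCB2 and CAV1 upwards and MIOX downwards. PDK4, which switches off glucose oxidation in fasting, had 1046 in IM, 905 in CM and 216 in CMT, 4.84-fold lower than in IM (4.49 to 5.23). FADS2, the desaturase of polyunsaturated fatty acid synthesis, had 1172, 1298 and 320.0, and FOS, a transcription factor gene induced within minutes of a stimulus, had 630.2, 842 and 145.

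**Figure D3:**
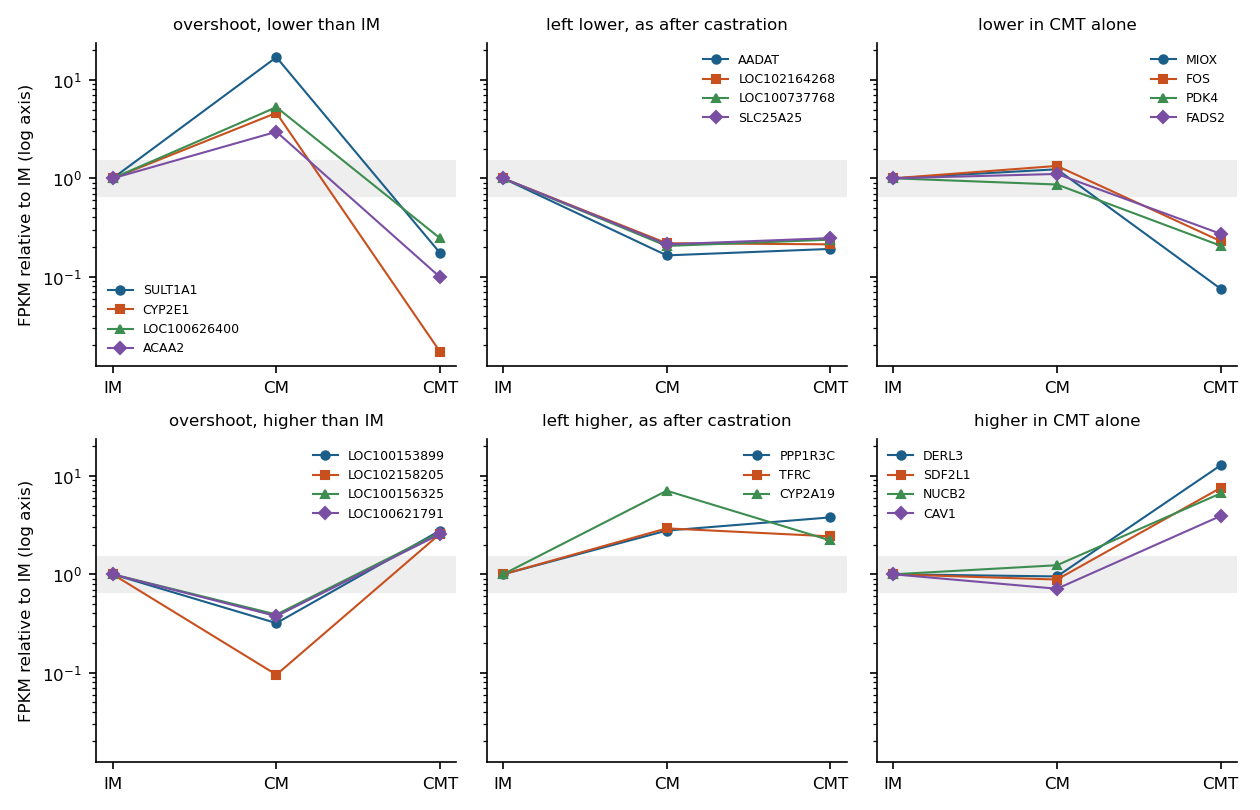
FPKM of each gene relative to its FPKM in IM (log y axis) in IM, CM and CMT, for 3 or 4 of the clearest genes of each class and direction, with the grey band marking values within 1.5-fold of IM. Overshoot genes (left) leave the band on opposite sides in CM and CMT, genes left changed (middle) stay on one side, and genes of the third class (right) leave it in CMT only.

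Among 18 measured steroid receptors and steroid-inactivating enzymes, 4 were lower and 1 was higher in CMT, at a median log2 ratio of -0.03. HSD17B13, a lipid-droplet retinol and steroid dehydrogenase, had FPKM values of 4557, 8138 and 525 in IM, CM and CMT, 8.68-fold lower than in IM (8.32 to 9.06). HSD17B2, which oxidizes testosterone and estradiol to less active steroids, had 41.5, 5614 and 7.30 in IM, CM and CMT, the last from 6 reads (5.69-fold lower, 2.41 to 16.4). CM thus stood far above both other libraries for HSD17B2. The steroid sulfatase STS had 11.1, 20.3 and 6.21, and SULT2A1, which sulfates androgens and bile acids, had 2611, 3448 and 1507. SRD5A1, which converts testosterone to dihydrotestosterone, was the member counted as higher, at 1.57 in IM and 2.58 in CMT from 6 and 8 reads, and its interval of 0.499 to 5.74 included 1. The estrogen receptor ESR1 had 15.8 in IM and 12.3 in CMT.

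Of 19 cytochrome P450 genes and their partners, 3 were higher and 6 lower in CMT, with a median of -0.13. CYP2E1, CYP1A2 and CYP1A1 lost most, as given above. CYP2B22, of the family induced by phenobarbital, had 595 in IM, 629 in CM and 231 in CMT, 2.58-fold lower than in IM (2.40 to 2.76). CYP2C36 went the other way, with 21594, 138 and 39447 in IM, CM and CMT, and CYP2C33 had 42997, 8849 and 30883. The CYP3A genes split, with CYP3A29 at 11185 in IM and 20544 in CMT, CYP3A22 at 70322 and 32845, and CYP3A39 at 63852 and 38665. Members of the CYP2C and CYP3A families are close copies, so their single values are uncertain.

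Among 22 drug receptors and conjugating enzymes, 3 were higher and 7 lower, with a median of -0.21. FMO5, a flavin monooxygenase, had 848 in IM, 1487 in CM and 85.9 in CMT, 9.87-fold lower than in IM. NNMT, which methylates nicotinamide, had 1162, 834 and 233. The glutathione transferase GSTA4 was higher, at 149, 271 and 325. AHR, the receptor that induces CYP1A1 and CYP1A2, had 168 in IM, 53.6 in CM and 255 in CMT, while the xenobiotic receptor NR1I2 (PXR) had 443 in IM and 378 in CMT.

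The unfolded protein response had the largest share of higher genes among the 48 gene lists: 12 of 28 measured members (42.9%) were at least 1.5-fold higher in CMT and 1 was lower, at a median log2 ratio of 0.45. All 12 belonged to the class seen in CMT alone. The reticulum proteins PDIA4, a disulfide isomerase, and DNAJB11, a cochaperone of HSPA5, had 1051 and 133 in IM, 1141 and 143 in CM, and 3218 and 359 in CMT. PDIA4 was 3.06-fold above IM (2.98 to 3.14) and DNAJB11 2.69-fold (2.37 to 3.07). The isomerase PDIA3 had 3537 in IM and 7401 in CMT, and the chaperone HSP90B1 had 2015 and 4107. HSPA5, the reticulum chaperone that senses misfolding, had 1230.3 in IM, 1416 in CM and 1718 in CMT, 1.40-fold higher (1.35 to 1.44).

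The mRNA of some regulators of the response was near its IM level in CMT, and the activity of these regulators was not measured. XBP1 had 1607 in IM and 1495 in CMT, ATF4 had 1059 and 954, and DDIT3, the proapoptotic factor CHOP, had 50.9 and 46.1. TRIB3, a target of ATF4 and DDIT3, was the member that was lower, at 4.35, 12.4 and 1.89 in IM, CM and CMT. Cytosolic heat shock proteins were also shifted upwards, with 6 of 20 measured members higher, none lower and a median of 0.40. HSP90AA1 had 2134 in IM, 2602 in CM and 3386 in CMT, 1.59-fold higher (1.51 to 1.67), and the small heat shock protein CRYAB had 1238, 741 and 1971. HSPA8, at 1131 and 1707, passed 1.5-fold narrowly.

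**Figure D4:**
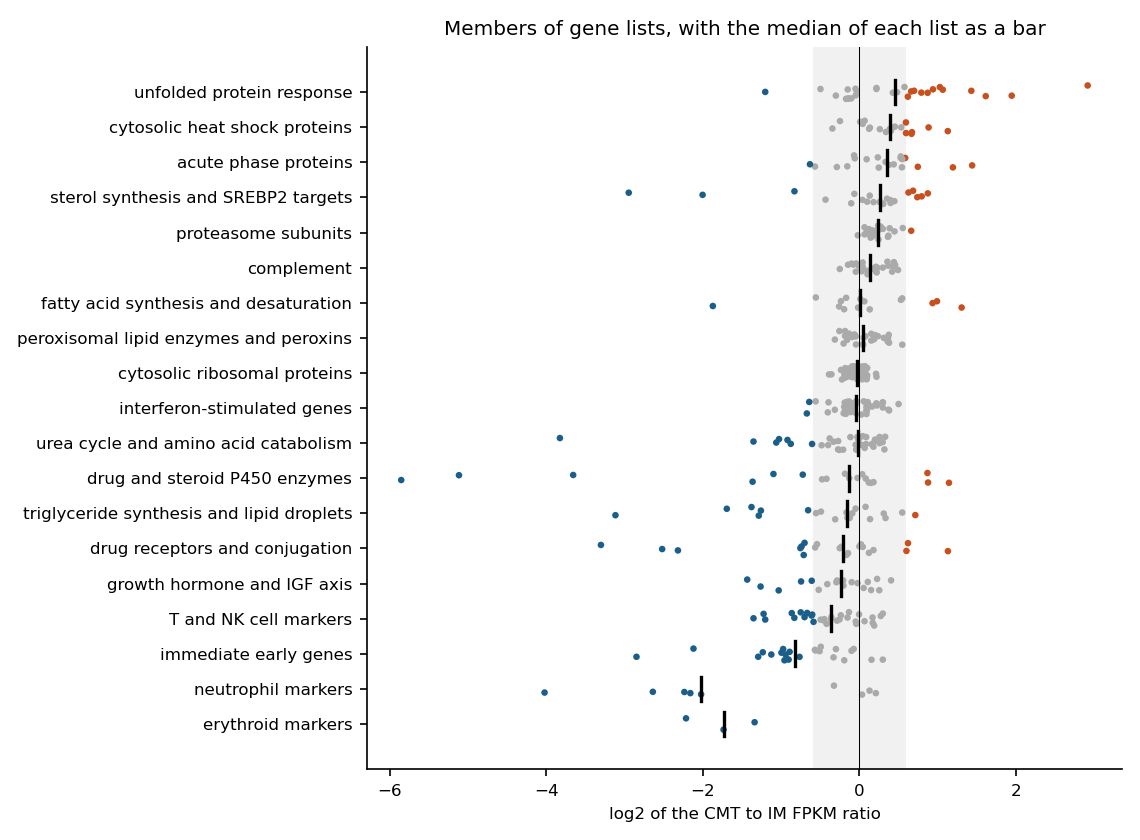
Log2 ratio of CMT to IM FPKM (x axis) for the measured members of 19 gene lists, 1 point per gene (orange for at least 1.5-fold higher in CMT, blue for at least 1.5-fold lower, grey within the shaded 1.5-fold range), with a black bar at the median of each list. Unfolded protein response genes extend to the right and immediate early, neutrophil and erythroid genes to the left, while ribosomal and peroxisomal genes stay in the shaded range.

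Secreted acute phase proteins, which hepatocytes release in inflammation, were moderately higher, with 4 of 20 measured members at least 1.5-fold higher, 1 lower and a median of 0.36. LBP, which binds bacterial lipopolysaccharide, had 1452 in IM, 789.9 in CM and 3323 in CMT, 2.29-fold above IM (2.22 to 2.36). C-reactive protein (CRP) had 1531, 832 and 2568, and ITIH4 had 10947, 3391 and 16428, just past 1.5-fold. LCN2, an iron-scavenging lipocalin, had 9.87 in IM and 26.8 in CMT. CM lay below IM by at least 1.5-fold for LBP, CRP and ITIH4, so these 3 were classed as overshoot. Albumin, which falls in inflammation, was the member that was lower, at 690375, 476360.0 and 445509 in IM, CM and CMT. Complement genes had 0 of 30 measured members past 1.5-fold in either direction, with C3 at 40457 in IM and 54586 in CMT.

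Cholesterol genes moved in opposite directions. Of 23 measured sterol synthesis genes and targets of SREBP2, the transcription factor that switches on cholesterol synthesis and uptake, 5 were higher and 3 lower, with a median of 0.27. The synthesis enzymes HSD17B7, FDPS and MVK had 151, 259 and 459 in IM and 277, 449 and 738 in CMT, between 1.61-fold (MVK, 1.53 to 1.69) and 1.83-fold higher (HSD17B7, 1.63 to 2.06). The cholesterol importer NPC1L1 had 62.2, 36.8 and 15.5 in IM, CM and CMT, and INSIG1, which holds SREBP2 in the reticulum, had 1075, 439 and 605.

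In fatty acid synthesis, 3 of 15 measured genes were higher and 1 lower, with a median of 0.01. SREBF1, which encodes the lipogenic factor SREBP1, had 917 in IM, 1169 in CM and 1823 in CMT, 1.99-fold higher (1.88 to 2.11). The desaturase SCD had 788, 1414 and 1506, and THRSP, a lipogenic factor under thyroid hormone and carbohydrate control, had 550.2, 262 and 1360.5. Fatty acid synthase (FASN) had 318 in IM and 266 in CMT, within 1.5-fold. Triglyceride and lipid-droplet genes leaned lower, with 6 of 20 lower and 1 higher at a median of -0.16, among them the acyltransferase DGAT2 (739.9 in IM, 862 in CM, 469.8 in CMT) and LPIN1 (238, 45.5 and 73.7), a phosphatidate phosphatase.

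Fatty acid oxidation was nearly level, with 2 of 24 measured genes higher, 2 lower and a median of 0.05. CPT1A, the gate for fatty acid entry into mitochondria, had 831, 353 and 812 in IM, CM and CMT. The acyl-CoA dehydrogenase ACADL had 1646, 619 and 2479. ACAA2 was therefore an exception in a pathway whose other measured genes were mostly within 1.5-fold. Peroxisomal genes had 0 of 28 and mitochondrially encoded proteins 0 of 13 past 1.5-fold.

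Of 20 measured growth hormone and IGF genes, 15 were within 1.5-fold of IM in CMT, 5 were lower and none was higher, with a median of -0.24. In CM, 9 of the 20 were lower than in IM, among them 4 of the 5, against 12.1% of all genes. Counts in CM depend on its scale, as described above. SOCS2, an inhibitor of growth hormone signaling that the hormone induces, had 578 in IM, 129 in CM and 214 in CMT, 2.70-fold lower than in IM (2.52 to 2.90). IGF1, the hepatic growth factor, had 59.4, 32.6 and 29.1, which is 2.04-fold lower in CMT than in IM (1.53 to 2.76), and SOCS1 had 72.0, 38.3 and 30.0, so that neither gene moved back towards IM. The growth hormone receptor GHR, at 935, 609.9 and 1007 in IM, CM and CMT, was near the IM level in CMT. Its CM value passed the threshold narrowly, at 1.53-fold below IM, so its change after castration depends on the scale of CM.

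Of 38 measured genes of the urea cycle and amino acid catabolism, 31 were within 1.5-fold, 7 were lower and none was higher, with a median of -0.02. In CM, 14 of the 38 were lower than in IM, among them 4 of the 7, against 12.1% of all genes. Serine dehydratase (SDS) had 12000.3, 424 and 4697 in IM, CM and CMT, and histidine ammonia-lyase (HAL) had 315, 118 and 151. The urea cycle genes CPS1 and OTC were within 1.5-fold. Among 12 measured insulin signaling genes, 4 were lower and none higher, with a median of -0.15. FOXO1, the factor that drives gluconeogenic genes when insulin is low, had 265 in IM, 67.1 in CM and 127 in CMT, 2.09-fold lower than in IM (1.92 to 2.28), and FOXO3 had 284, 158 and 176. The insulin receptor INSR had 114 in IM and 101 in CMT. Glycogen synthase GYS2 had 2514, 964 and 1442, whereas PCK1, the entry enzyme of gluconeogenesis, had 15266, 6514 and 11000.0, within 1.5-fold of IM.

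Apolipoprotein genes were mostly within 1.5-fold, with 1 of 18 measured genes higher and 2 lower. APOA4, a lipoprotein component made after fat intake, had 3195 in IM, 1025 in CM and 999 in CMT, 3.20-fold lower than in IM (3.07 to 3.34) and at its castrate level. APOA2 had 24015, 16501 and 37414, while APOA1, the main protein of HDL, had 78115 in IM and 66662 in CMT.

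Several other pathways had few genes past 1.5-fold. Of 20 measured genes of bile acid synthesis and transport, 3 were higher and 1 lower, with CYP7A1, the rate-limiting enzyme of bile acid synthesis, at 937 in IM and 1177 in CMT. Targets of NRF2, the factor that answers oxidative stress, had 0 of 26 higher and 1 lower, and the quinone reductase NQO1 was back at 39.9 in CMT from 604 in CM, next to 47.5 in IM. Nuclear-encoded respiratory chain subunits had 1 of 44 and citrate cycle genes 1 of 22 higher, with none lower in either list. Antigen presentation genes had 0 of 21 past 1.5-fold, and coagulation factors and plasma carriers had 1 of 28 higher and 2 lower. Targets of p53 and cell death genes were lower more often than the 10.5% of all genes, with 7 of 29 (24.1%) lower and 1 higher, among them CDKN1A, a cell cycle inhibitor, at 159, 287 and 101 in IM, CM and CMT.

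Immediate early genes, which are induced within minutes by growth factors or stress, had the largest number of lower members among the 48 lists. Of 24 measured members, 13 (54.2%) were lower in CMT and none higher, with a median of -0.83. In CM, 11 of the 24 were lower than in IM, among them 9 of the 13, against 12.1% of all genes. EGR1 had 417 in IM, 147 in CM and 57.9 in CMT, 7.20-fold lower than in IM (6.47 to 8.04), and the antiproliferative gene BTG2 had 1533, 716 and 652. MAFF had 69.7, 44.6 and 28.5. Clock genes were partly lower too, with 5 of 16 lower and 1 higher. PER1 and PER2, the repressors of the clock, had 353 and 123 in IM and 200.2 and 72.9 in CMT, while ARNTL, their activator, had 33.0 in IM and 53.8 in CMT.

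Markers of some other cell types also differed between IM and CMT. Of 31 measured T and NK cell markers, 11 (35.5%) were lower in CMT and none higher, with a median of -0.36, and all 11 were within 1.5-fold of IM in CM. The T cell receptor chain CD3E had 53.7, 79.7 and 39.0 in IM, CM and CMT, and the NK receptor KLRD1 had 20.9, 28.6 and 9.10, 2.30-fold lower than in IM (1.32 to 4.19). The cytotoxic genes GZMB and GZMM had 10.3 and 22.4 in IM and 4.41 and 8.78 in CMT, from 8 and 7 reads in CMT. CD4 and NKG7 were level, at 114 and 166 in IM and 119 and 151 in CMT. Chemokines and their receptors had 7 of 37 measured genes lower and none higher, including CXCL2 (312 in IM, 259 in CM, 125 in CMT) and the chemokine receptor CXCR6 of T cells (35.4, 30.4 and 17.8). Interferon-stimulated genes had 2 of 41 lower and none higher, with MX1 at 759, 1424 and 807 in IM, CM and CMT.

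Erythroid and some neutrophil genes were lower in CMT than in IM. The 3 measured erythroid markers were all lower, with beta globin HBB at 17158, 3399.7 and 5151 in IM, CM and CMT, 3.33-fold lower than in IM (3.23 to 3.43), and the summed FPKM of the erythroid markers was 17294, 3423 and 5194. Of 9 measured neutrophil markers, 5 were lower, 4 were within 1.5-fold and none was higher, with a median of -2.02. With a minimum FPKM of 10 in both libraries the median was 0.034, and with a pseudocount of 1 it was -1.50. S100A8, an abundant neutrophil protein, had 41.3, 15.2 and 2.54 in IM, CM and CMT, with 1 read in CMT, so that its interval ran from 2.60 to 674. S100A9 had 28.2, 8.98 and 4.52, and S100A12 had 63.8, 21.0 and 13.5. The neutrophil receptors CSF3R and CXCR2 were level, at 13.4 and 15.1 in IM and 15.4 and 15.4 in CMT. The part of these cells in the lower immediate early and chemokine genes was not tested.

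Resident cells differed less. Of the 10 measured Kupffer cell or macrophage markers fixed for the check of cell types, 0 were past 1.5-fold, and their summed FPKM was 17299 in IM and 18689 in CMT. The scavenger receptor CD163 had 1305 in IM and 1386 in CMT, and MARCO had 414, 82.8 and 317 in IM, CM and CMT. The endothelial marker PECAM1 had 422 in IM and 418 in CMT, the stellate cell genes COL1A1 and ACTA2 had 82.6 and 483 in IM and 74.9 and 464 in CMT, and the bile duct marker EPCAM had 36.6 and 41.4.

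**Figure D5:**
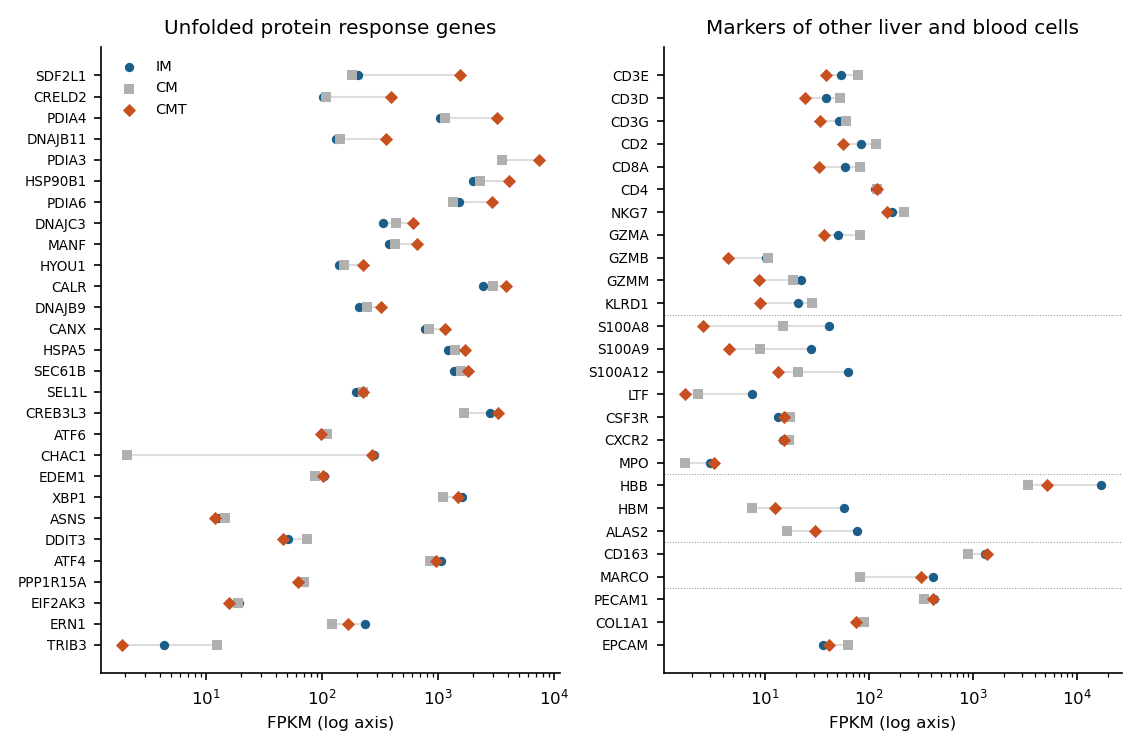
FPKM in IM, CM and CMT (log x axes, 1 symbol per library) of the 28 measured unfolded protein response genes, ordered by CMT to IM ratio (left), and of markers of T and NK cells, neutrophils, erythroid cells, macrophages, and endothelial, stellate and bile duct cells, from top to bottom (right). Chaperone genes at the top left lie to the right in CMT with CM near IM, and S100A8, S100A9, HBB and HBM lie to the left of IM in both CM and CMT.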

How the data were processed

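Liver RNA of Chinese Wuzhishan pigs was pooled by group into 3 libraries (TruSeq), of which IM and CMT were compared and CM served to class the differences. Per the submitters' processing notes, reads were checked with FastQC and mapped with TopHat, and the study's methods name the Sscrofa10.2 genome. The counting program and annotation are not given in the sources used here. The authors deposited FPKM values for each feature, normalized by transcript length and depth, with 1 table per library joined here by gene name. Gene symbols are those of the tables, with RefSeq names for LOC entries where Sscrofa11.1 gives one, and no coordinates were used. Dates stand where a symbol should for 23 features.

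FPKM ratios were taken without rescaling or a pseudocount. Within a gene the deposited FPKM values are whole multiples of 1 step (tolerance 0.002), from which reads were recovered for 23106 of 24277 features above 0 (95.2%), for transcript lengths up to 10000 bases. No reads were recovered for some named genes, among them AQP9, AHR, LPIN1, HSPA8 and MT1A, which therefore have no interval. Reads may be too low by a factor common to a gene, which widens its interval, and intervals are too narrow if both mates of a pair were counted. The recovery and the counts of genes past the threshold were tested on simulated data. Tests that treat reads as replicates were not run.

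The members and the 48 gene lists were chosen with earlier results of these data known. Named genes were the 10 highest and lowest CMT to IM ratios among genes that reached an FPKM of 10 in both libraries and 100 in 1, the 4 clearest genes of each class and direction, and in each list the first 2 measured genes and up to 4 past 1.5-fold in each direction. Chosen after their values were seen were CHAC1, CYP3A22, CYP3A39, PDIA3, HSP90B1, XBP1, ATF4, CD4, CSF3R, CXCR2 and the features named outside the comparison. Some genes that the rule selects are not reported here, but are part of the counts. Alternatives were a 2-fold threshold, a pseudocount of 1, a minimum FPKM of 10, no minimum, 4 scalings, an interval without 1, at least 50 reads, a correction for transcript length and features of every type. Python 3.11.15 was used with numpy 2.4.6, pandas 2.3.3, scipy 1.17.1 and matplotlib 3.10.9.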

Additional observations from a re-analysis of the deposited data

How the results depend on the processing

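The 4 scalings moved the median log2 ratio of all genes by at most 0.04. Named genes were recomputed only with the pseudocount, the 4 scalings and the length correction. None of these could turn the direction of a gene past 1.5-fold. A pseudocount keeps the direction of a ratio, and the other shifts were at most 0.052 on the log2 scale. The counts of genes higher and lower in CMT, of overshoot genes, of changes left in CMT and of genes apart in CMT alone were 494, 635, 122, 351 and 615 with an FPKM minimum of 10, against 1088, 1661, 312, 973 and 1333 as reported. With a 2-fold threshold they were 364, 651, 72, 267 and 620, and with at least 50 recovered reads 591, 870, 161, 487 and 800. Requiring an interval without 1 left 635 genes higher and 900 lower, and without a minimum 1468 castration changes were left in CMT. The minimum and the limit on reads change the number of genes tested, and the 2-fold threshold and the interval set a stricter call on the same genes. The median of the neutrophil markers turned from -2.02 to 0.034 with a minimum of 10, where low markers drop out. Overshoot genes numbered 390 with equal column sums and 391 with scaling to recovered reads, because these raise CM relative to IM by 0.26 and 0.28 on the log2 scale. Upper quartile scaling took 9 of 185 named genes within 1.5-fold, among them ITIH4, HSPA8 and AHR. No paired analysis was possible because each group is 1 library, and for the same reason no replicate could be left out. Depth limits weak genes most, since 1163 of 2624 genes past 1.5-fold rested on fewer than 50 reads.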

Other observations

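Some genes fell outside the comparison because they were nearly absent from one library. Among mRNA features that reached an FPKM of 10 in one library and stayed under 1 in the other, 17 were found in IM and 3 in CMT. The C-type lectin CLEC18A had FPKM values of 86.9, 84.2 and 0.495 in IM, CM and CMT. LOC100037944, named CHI3L2 in RefSeq and related to chitinases, had 303 in IM, 1.67 in CM and was listed at 0 in CMT. The antimicrobial peptide genes NPG4 and PMAP-23, products of pig neutrophils and their precursors, had 32.4 and 22.1 in IM, 4.91 and 3.01 in CM, and were listed at 0 in CMT. The hormone gene CCK was among the 3 found in CMT, at 12.8 there, 3.82 in CM and 0 in IM. These values rested on 4 reads in CMT, 2 in CM and 0 in IM. The lower bound of its CMT to IM ratio was 0.812, so the interval included 1. At the minimum of 1, 755 mRNA features were measured in IM alone of the 2 libraries and 554 in CMT alone.

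Proteasome genes were shifted by less than 1.5-fold. Of 26 measured proteasome subunits, 25 had a ratio above 1 in CMT, at a median log2 ratio of 0.23, although 1, PSMD14 at 162 in IM and 256 in CMT, was past 1.5-fold. Of 62 cytosolic ribosomal protein genes, 0 were past 1.5-fold, with a median of -0.03, and RPL3 had 4974 in IM and 4943 in CMT.

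Cell cycle genes were low in both libraries. Of 30 measured mitotic genes, 5 were higher and 5 lower in CMT, with CDK1 at 3.64, 35.2 and 9.71 in IM, CM and CMT from 6 reads in IM and 13 in CMT, and FOXM1 at 2.14, 10.7 and 1.17. CM held the highest value of both.

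The copper and manganese exporters ATP7B and SLC30A10 had 77.7 and 54.5 in IM and 132 and 93.1 in CMT. Metallothionein MT1A had 14069 in IM, 37008 in CM and 4529 in CMT, with an uncertain level because metallothionein genes are close copies. Of 21 measured liver transcription factors, 2 were higher and 3 lower in CMT, with a median of -0.03. Among the lower, FOXA2 and CEBPB had 174 and 496 in IM, 54.6 and 190.4 in CM, and 102 and 277 in CMT. The higher, FOXA1 and FOXA3, had 59.3 and 59.6 in IM, 91.0 and 201 in CM, and 93.3 and 91.2 in CMT. HNF4A had 896 in IM and 1114 in CMT.

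Outside mRNA, 2905 features of other types had an FPKM of at least 1 in both libraries, of which 471 were at least 1.5-fold higher and 653 lower in CMT. Of the 392 that were well expressed, with an FPKM of 10 in both libraries and 100 in 1, 36 were higher and 36 lower. LOC102161510, listed as miscRNA, had 29939 in IM, 14686 in CM and 75233 in CMT.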
